A study of Mus musculus with 23 samples.

Results

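Gene expression in TM4 cells treated with DINCH was compared directly with that in TM4 cells treated with BDB, using 8 of the 23 arrays of the series, 4 for each compound. The arrays were taken by the treatment in their titles, and no array of untreated or vehicle-treated cells entered the test. TM4 is an immortalized mouse line derived from Sertoli cells, the somatic cells of the testis that support developing germ cells. Cells of both groups were grown in the same way and exposed for 48 hr to 100 μM of a compound in 1% DMSO, the vehicle, so both groups carried the vehicle too. DINCH is the diisononyl ester of a cyclohexane dicarboxylic acid, with a saturated ring and branched alkyl chains, and BDB is the dibenzoate ester of butanediol, with aromatic rings at both ends of a short linker. Both are plasticizers put forward in place of phthalates, and this was the only pair of compounds compared, at 1 matched dose and time. The labels describe the 4 samples of a group as biological replicates of this 1 line and do not say how the cultures were separated, so the p-values measure the spread between these samples. A single line of cells is a limited model of the Sertoli cells of an animal.

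The arrays of DINCH and BDB both lay in rows 1 and 3 of the slides, while the DMSO arrays lay in other rows. Each compound had 2 arrays in row 1 and 2 in row 3, spread over the same 3 slides. The 75th percentile of the processed signal, the scale used for each array, was 204.6 to 292.8 intensity units in DINCH and 222.4 to 289.6 in BDB, and 43.4 to 52.2% and 45.5 to 48.2% of the probes were well above background. No spot was saturated. The correlation between arrays of a group was 0.9908 to 0.9959. In a principal component analysis of the 8 arrays, the first component held 44.6% of the variance and placed the BDB arrays between −35.6 and −16.2 and the DINCH arrays between 12.9 and 45.9. Over the tested probes, the compound accounted for 39.8% of the variance against 14.3% for an arbitrary division of that kind. The row accounted for 7.5% against 14.3%, and the slide for 33.6% against 28.6%. These reference shares do not take the compound into account, so they understate how far the slide share stands out, and its size beyond the compound was not tested.

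Several pathways named below have well known outputs. Cells that sense type I interferon or viral RNA assemble a factor holding STAT2 and IRF9 on short promoter elements and switch on antiviral genes. Growth factor receptors act through RAS and the kinase ERK, which induces immediate-early transcription factors together with phosphatases and Sprouty proteins that dampen the same pathway. Amino acid shortage and other stresses favour translation of ATF4, which drives amino acid transport and synthesis genes, and low sterol releases SREBP2, which drives the enzymes of cholesterol synthesis. Sertoli cells feed germ cells with lactate and other metabolites and form the blood-testis barrier. Glutathione transferases conjugate electrophilic chemicals to glutathione and are part of the defence of the testis.

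The promoters of 5 members of these groups are shown because the groups they belong to differed between the compounds and because they hold the short element their group is known for. Each is the 250 bases before the gene's annotated start, from RefSeq on GRCm38.p6, written 5′ to 3′ on the strand of the gene, with matches to the element in capitals. The interferon element searched was GAAA, then any 2 bases, then GAAA, which reads as TTTC, 2 bases and TTTC on the other strand, the sterol element was TCACNCCAC, and the amino acid response element was TTGCATCA, and each was searched on both strands with overlapping matches kept. Ifit3 is at chr19:34583279-34583528 on the plus strand, Ifit1 at chr19:34640639-34640888 on the plus strand, Stat2 at chr10:128270248-128270497 on the plus strand, Hmgcs1 at chr13:119690101-119690350 on the plus strand and Atf3 at chr1:191183334-191183583 on the minus strand.
Ifit3: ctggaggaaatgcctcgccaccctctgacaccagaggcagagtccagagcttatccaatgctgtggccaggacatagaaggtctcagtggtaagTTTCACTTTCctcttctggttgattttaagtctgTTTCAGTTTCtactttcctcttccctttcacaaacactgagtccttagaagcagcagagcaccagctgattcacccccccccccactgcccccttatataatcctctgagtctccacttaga
Ifit1: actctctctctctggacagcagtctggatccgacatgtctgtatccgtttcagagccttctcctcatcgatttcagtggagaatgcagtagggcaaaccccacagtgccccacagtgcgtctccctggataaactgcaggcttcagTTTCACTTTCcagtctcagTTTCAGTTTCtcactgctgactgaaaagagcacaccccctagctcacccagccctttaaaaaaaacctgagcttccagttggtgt
Stat2: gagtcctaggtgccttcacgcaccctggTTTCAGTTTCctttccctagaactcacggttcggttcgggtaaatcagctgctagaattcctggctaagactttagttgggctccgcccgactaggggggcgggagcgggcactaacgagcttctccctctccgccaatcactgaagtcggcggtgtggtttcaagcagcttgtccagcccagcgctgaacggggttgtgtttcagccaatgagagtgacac
Hmgcs1: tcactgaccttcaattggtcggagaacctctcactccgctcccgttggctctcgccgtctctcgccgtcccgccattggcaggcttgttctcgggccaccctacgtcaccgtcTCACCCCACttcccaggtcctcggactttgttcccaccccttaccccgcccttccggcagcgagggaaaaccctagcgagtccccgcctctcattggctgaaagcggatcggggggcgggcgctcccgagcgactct
Atf3: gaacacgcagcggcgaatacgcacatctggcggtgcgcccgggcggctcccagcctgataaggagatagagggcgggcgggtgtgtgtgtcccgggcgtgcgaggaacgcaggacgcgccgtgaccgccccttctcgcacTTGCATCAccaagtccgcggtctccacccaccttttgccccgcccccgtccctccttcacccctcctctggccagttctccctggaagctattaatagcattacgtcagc
The matches begin 156 and 122 bases before the start of Ifit3, 104 and 85 bases before that of Ifit1, 222 bases before that of Stat2, 137 bases before that of Hmgcs1 and 110 bases before that of Atf3. Of 32851 such windows in the table, which belong to 27025 symbols, 2.98% held the interferon element, 1.05% the sterol element and 0.791% the amino acid element. Among the tested interferon-induced genes, 19 had a window and 7 of them held the element, namely Bst2, Ifit1, Ifit3, Isg15, Oas1a, Rsad2 and Stat2. For the cholesterol synthesis enzymes this was 1 of 17, Hmgcs1, and for the ATF4 target genes 4 of 23, Atf3, Chac1, Nupr1 and Vldlr. A match describes these letters only and is not evidence of binding.

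To ask which genes separated the compounds, 23907 probes of 11902 named genes and of unnamed transcripts were tested with limma. Calls required a Benjamini-Hochberg adjusted p below 0.05 and a difference above 1.5-fold on at least 1 probe of the gene. The background was 1177 of 11902 genes called, or 9.89%, with 644 (5.41%) higher in DINCH and 533 (4.48%) lower. Of these, 272 differed by more than 2-fold, 123 higher and 149 lower in DINCH. Counts in the gene lists below are to be read against the shares of 9.89%, 5.41% and 4.48%. The median difference over all tested genes was 0.03 log2 units, and 54.5% of them were above 0. All differences below are DINCH minus BDB on the log2 scale with their standard error, and levels are log2 intensities relative to the array's 75th percentile. A level is comparable between arrays for the same gene and not between genes. In whole cultures, fewer cells of a type and less RNA per cell cannot be told apart.

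Among the genes with the largest differences, Myom2, a structural protein of the muscle sarcomere, was at 1.54, 1.28, 1.1 and 1.19 in DINCH and at −0.96, −1.15, −1.83 and −1.36 in BDB. All 4 DINCH arrays were above all 4 BDB arrays, and the difference was 2.60 ± 0.18 (SE, n = 4 per group), or 6.07-fold (limma, adjusted p = 0.000553). Upk3bl, a relative of the uroplakins of bladder epithelium, was at −2.10, −2.44, −2.94 and −2.22 in DINCH, and was not well above background on any BDB array. Taking the lowest signal well above background on each BDB array as the limit, Upk3bl was at least 3.80-fold higher in DINCH. By the same rule Il2rb, a receptor chain for the cytokines IL-2 and IL-15, was at least 1.81-fold higher in DINCH. These limits were not tested and apply to the main background correction only. The limma adjusted p-values, 0.0018 for Upk3bl and 0.000743 for Il2rb, belong to the measured values, with BDB signals not well above background. Hrct1 was higher by 2.22 ± 0.16, with 1 of 4 BDB arrays well above background, and Plekhs1 by 2.13 ± 0.24, with 3 of 4. Upk3bl, Il2rb, Hrct1 and Plekhs1 passed the filter on dim probes only through the DINCH arrays, where they were brighter. For these 4 the filter was not independent of the difference.

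On the lower side, Mgp, a secreted inhibitor of matrix calcification, showed the largest difference of the named genes. It was at −3.75, −2.90, −2.59 and −2.75 in DINCH and at −0.44, 0.99, 0.91 and 1.29 in BDB. The groups did not overlap, BDB 1 was lowest of its group, and the difference was −3.69 ± 0.37, or 12.9-fold (limma, adjusted p = 0.00112). Grem1, a secreted antagonist of bone morphogenetic proteins, was at −2.08, −2.34, −2.37 and −2.47 in DINCH and at −0.19, −0.16, −0.88 and 0.03 in BDB, a difference of −2.01 ± 0.19 (adjusted p = 0.00087). Arid5a, an RNA-binding protein that stabilizes cytokine mRNAs, was lower by 2.08 on the log2 scale. Mettl7b differed by −2.69 ± 0.50 and Tmem74 by −2.45 ± 0.33, with 1 and 2 of the 4 DINCH arrays well above background. Mettl7b, Tmem74 and Tnc, named next, passed the filter only through the BDB arrays, where they were brighter. For these 3 the filter was not independent of the difference. Matrix genes as a list were mixed: of 30 tested collagens and matrix genes 5 (16.7%, against 4.48% of all tested genes) were lower in DINCH and none higher, with a list median of −0.15. These were Mgp, Col8a1 at −1.17 ± 0.19, Tnc at −1.46 ± 0.41, Fbn1 at −1.14 ± 0.32 and Spp1, named after its value was seen, at −0.98. The count was 3 without DINCH 1, BDB 2 or BDB 3 and 8 without BDB 1. Without BDB 2 the adjusted p was 0.114 for Tnc and 0.117 for Fbn1, and each lost its call without several other arrays too.

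Dim genes depended on the background correction. With normexp and an offset of 50, which compresses low signals, Mgp was at −2.41, Grem1 at −1.31, Mettl7b at −0.63, Tmem74 at −0.80, Hrct1 at 0.72, Plekhs1 at 0.82 and Upk3bl at 0.64, all still called. Il2rb was at 0.44 and was not. Of genes described below, Ifit3 was at 1.19, Irf7 at 0.66, Fosl1 at −1.50, Spry4 at −0.62 and Slc7a11 at −0.97, all still called, and Fos was at −0.36, Slc39a8 at 0.26, Tnc at −0.38, Sh2d3c at 0.44 and Gsta4 at 0.49, under the 1.5-fold limit.

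**Figure D1:**
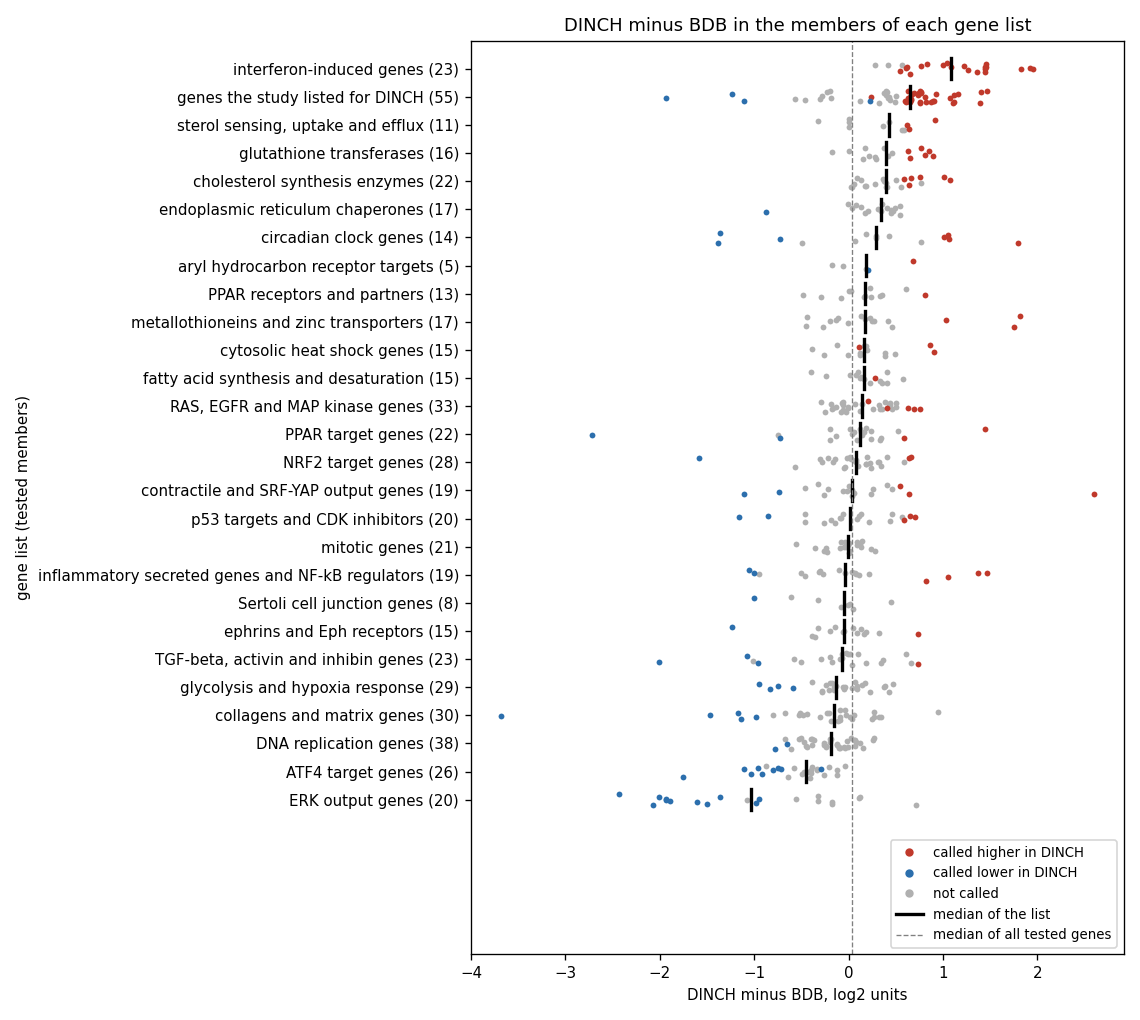
Differences between DINCH and BDB (horizontal axis, log2 units, DINCH minus BDB) of the tested members of 27 gene lists (vertical axis, number tested in brackets), 1 point per gene, red for members called higher in DINCH, blue for those called lower and grey for the rest. Black bars are list medians and the dashed line is the median of all tested genes at 0.03, and the interferon-induced genes all lie above 0 while the ATF4 target genes all lie below it.

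Interferon-induced genes were higher in DINCH than in BDB as a group. Of 27 listed genes 23 were tested, 20 were called higher, none lower, and all 23 lay above 0, with a median difference of 1.09 against 0.03 over all tested genes and a background of 5.41% called higher. In 22 of the 23 the groups did not overlap, against 27.3% of all tested genes. Usp18 passed the filter on dim probes only through the DINCH arrays and Oas1a only through the BDB arrays. Mx1 and Mx2 had no probe with a matched symbol. With a background correction by normexp, 13 of the 23 were called, with a median of 0.66. With no filter on dim probes, 12 of 25 were called higher.

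Among the effector genes, the oligoadenylate synthetase-like genes Oasl2 and Oasl1, relatives of the enzymes that activate RNase L, showed the largest differences. Oasl2 was at 1.55, 1.25, 1.03 and 1.57 in DINCH and at −0.86, −0.57, −0.63 and −0.34 in BDB. This separation of all arrays corresponded to 1.95 ± 0.15, or 3.86-fold (limma, adjusted p = 0.000593). Oasl1 was at 3.43, 3.23, 2.91 and 3.25 in DINCH and at 1.62, 1.04, 0.99 and 1.46 in BDB, a difference of 1.93 ± 0.17 (adjusted p = 0.000743). Ifit3, which encodes a protein that binds foreign RNA together with IFIT1, was at −0.19, −0.66, −0.62 and −0.47 in DINCH and at −2.45, −2.27, −2.30 and −2.26 in BDB. The BDB arrays of Ifit3 lay within 0.2 of each other, and its difference of 1.83 ± 0.12 was 3.56-fold (adjusted p = 0.000451). Ifit1, whose promoter is shown above with 2 matches, was at 2.19, 1.85, 1.55 and 1.66 in DINCH and at 0.42, 0.42, 0.11 and 0.48 in BDB. Like Ifit1 (1.46), other effectors were called higher in DINCH: of 15 tested effectors 14 were called and their median was 1.27. They included, named after their values were seen, Xaf1 (1.45), Rtp4 (1.44), Rsad2 (1.09) and Isg15 (0.83). Oas1a was at 0.28 with a 95% interval from −1.08 to 1.64, and was not called.

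The sensors and transcription factors of the pathway lay above 0 too. Irf7, the factor that amplifies interferon production, was at −1.40, −1.96, −1.98 and −1.89 in DINCH and at −3.64, −3.36, −3.31 and −2.76 in BDB. DINCH 1 was highest of its group, all DINCH arrays exceeded all BDB arrays, and the difference was 1.46 ± 0.20 (limma, adjusted p = 0.00281). Stat2, a subunit of the factor that binds the interferon element, was at 2.79, 2.72, 2.61 and 2.79 in DINCH and at 1.65, 1.22, 1.69 and 1.48 in BDB, a difference of 1.22 (adjusted p = 0.00104). Its partner Irf9 was at 0.56 (adjusted p = 0.023) and Irf1 at 0.42 (adjusted p = 0.0128), both below the 1.5-fold limit. Of the RNA sensors, Dhx58 was called at 1.36, Ifih1 at 0.65 and Ddx58 through another of its probes.

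**Figure D2:**
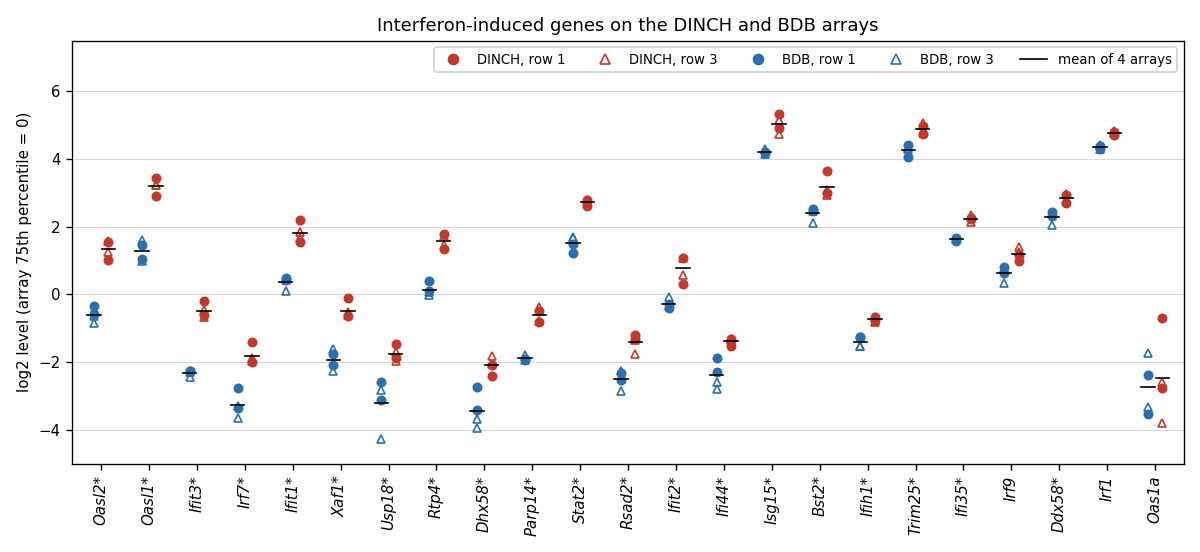
Log2 level relative to the array's 75th percentile (vertical axis) of 23 interferon-induced genes (horizontal axis, called genes starred), with 1 point per array, DINCH in red and BDB in blue, filled circles for slide row 1, open triangles for row 3 and black bars for the means of 4 arrays. For Oasl2, Oasl1 and Ifit3 every DINCH array lies above every BDB array, and for Oas1a the groups overlap.

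The vehicle arrays were set beside these levels as a description, since they lie in other rows and row and treatment cannot be told apart there. Oasl2 had a mean of 0.25 ± 0.23 (SD, n = 4) in DMSO, between 1.35 in DINCH and −0.60 in BDB. Of 19 interferon-induced genes called on their brightest probe, the DMSO mean lay between the DINCH and BDB means in 17 and was nearer BDB in 13. MEHP, the active metabolite of the phthalate DEHP, has arrays in the same rows as DINCH and BDB, and its mean was nearer BDB in 17 of the 19. Over all 1056 genes called on their brightest probe, the DMSO mean was nearer BDB in 870 (82.4%) and the MEHP mean in 562 (53.2%).

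Chemokines and other inflammatory genes were divided. Of 19 tested, 4 were higher in DINCH and 2 lower, and the lower count was 1 without DINCH 1, DINCH 3, BDB 2, BDB 3 or BDB 4, with quantile normalization, with a variance trend and in the authors' table. The chemokine Ccl5, which attracts T cells, was at 5.09, 4.54, 4.38 and 4.90 in DINCH and at 3.25, 3.25, 3.02 and 3.51 in BDB, a difference of 1.47 ± 0.17 (limma, adjusted p = 0.00178). The monocyte chemokines Ccl7 and Ccl2 were higher by 1.37 ± 0.11 and 1.05 ± 0.13, and Cxcl10, which interferon also induces, was higher by 0.82, named after its value was seen. In contrast Ptgs2, the inducible cyclooxygenase, was at −1.36, −1.56, −1.76 and −1.07 in DINCH and at −0.77, −0.21, −0.26 and −0.31 in BDB, a difference of −1.06 ± 0.17. Il6 was lower by 1.0 on the log2 scale (adjusted p = 0.0494) and was well above background on 1 of 4 DINCH arrays, so that it passed the filter only through BDB. The NF-kB genes Nfkb1 (0.03), Nfkb2 (−0.27) and Nfkbia (−0.50, 95% interval −1.06 to 0.06) were not called.

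Genes induced through RAS and ERK were lower in DINCH. Of 23 listed ERK output genes 20 were tested, 11 were called lower and none higher, and the median was −1.03, against 4.48% of all tested genes called lower and a median of 0.03. With the normexp background correction 9 were called lower, with a median of −0.45, and with no filter on dim probes 6 were. The members called in the main test were Fosl1, Spry1, Egr1, Fos, Spry4 and, named after their values were seen, Etv5, Ier2, Egr2, Myc, Dusp6 and Etv4. Egr2, Fos, Spry2 and Spry4 passed the filter only through the BDB arrays, where they were brighter. For these 4 the filter was not independent of the difference.

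Egr1, an immediate-early zinc finger factor, was at 1.68, 2.92, 2.93 and 3.14 in DINCH and at 4.75, 4.31, 4.75 and 4.91 in BDB. DINCH 1 was far below the other DINCH arrays, yet even the highest DINCH array was below the lowest BDB array, and the difference was −2.01 ± 0.29, or 4.03-fold (limma, adjusted p = 0.0033). Fosl1, which encodes the AP-1 subunit FRA-1, was at −3.33, −1.38, −1.98 and −2.02 in DINCH and at 0.49, 0.13, 0.28 and 0.10 in BDB, a difference of −2.43 ± 0.34 (adjusted p = 0.00309). Myc, the growth-promoting transcription factor, was at 1.36, 1.61, 2.02 and 1.82 in DINCH and at 3.0, 3.13, 2.95 and 3.19 in BDB. The Myc groups were separated by nearly 1 log2 unit and differed by −1.36 (adjusted p = 0.00129). Fos, the partner of JUN in AP-1, differed by −1.93 ± 0.23 and was well above background on 1 of 4 DINCH arrays.

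Of the feedback inhibitors of the pathway, Spry1, Spry4 and Dusp6 were called lower in DINCH as well. Spry1, a Sprouty protein that restrains receptor signalling, was at −2.38, −0.41, −0.13 and −0.21 in DINCH and at 0.72, 1.28, 1.81 and 1.35 in BDB. The groups did not overlap, DINCH 1 was again the lowest array, and the difference was −2.07 ± 0.46 (limma, adjusted p = 0.0176). Without BDB 2 or BDB 4 the adjusted p of Spry1 was 0.0521 or 0.0505. Spry4 differed by −1.93 ± 0.46 (adjusted p = 0.0222), was well above background on 2 of 4 DINCH arrays, and was not called without DINCH 4, BDB 2, BDB 3 or BDB 4, with adjusted p-values of 0.0526, 0.0675, 0.0606 and 0.0601. Dusp6, a phosphatase specific for ERK, was lower by 0.98 on the log2 scale (adjusted p = 0.0145), while Dusp4 was at 0.71 with a 95% interval from −0.14 to 1.57. Spry2 was at −1.08 (adjusted p = 0.0638). Ccnd1, Ier3, Fosb and Phlda1 were at −0.18, 0.11, 0.13 and −0.17, and none was called. The DMSO mean was nearer BDB than DINCH for all 11 called members, and the MEHP mean for 10.

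Among components of the pathway, 33 RAS, EGFR and MAP kinase genes were tested, and 5 were higher in DINCH and none lower, with a median of 0.14. The share called was 15.2%, against 9.89% of all tested genes. Mras, a RAS-related GTPase, was at 2.86, 2.21, 2.21 and 2.53 in DINCH and at 1.88, 1.85, 1.51 and 1.82 in BDB, a difference of 0.69 ± 0.16 (limma, adjusted p = 0.0205). Its call was lost without DINCH 1, where the difference was 0.55, and without BDB 2, BDB 3 or BDB 4, with adjusted p-values of 0.051, 0.056 and 0.052. Rps6ka1, a kinase activated by ERK, was at 0.76 ± 0.17, and Rras at 0.62 ± 0.16, with adjusted p-values of 0.0646, 0.064, 0.0852, 0.0758 and 0.0669 without DINCH 1, DINCH 4, BDB 2, BDB 3 and BDB 4. Mapk12, which encodes the kinase p38 gamma, was at 0.44 with a 95% interval from 0.14 to 0.74 (adjusted p = 0.0571). The probes of Egfr, the receptor for epidermal growth factor, disagreed: the brightest was at 0.20 (adjusted p = 0.197), another was called at 0.66 (adjusted p = 0.0216) and the third was at 0.49 (adjusted p = 0.0654). The number called in this list fell to 2 without DINCH 1, BDB 3 or BDB 4.

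**Figure D3:**
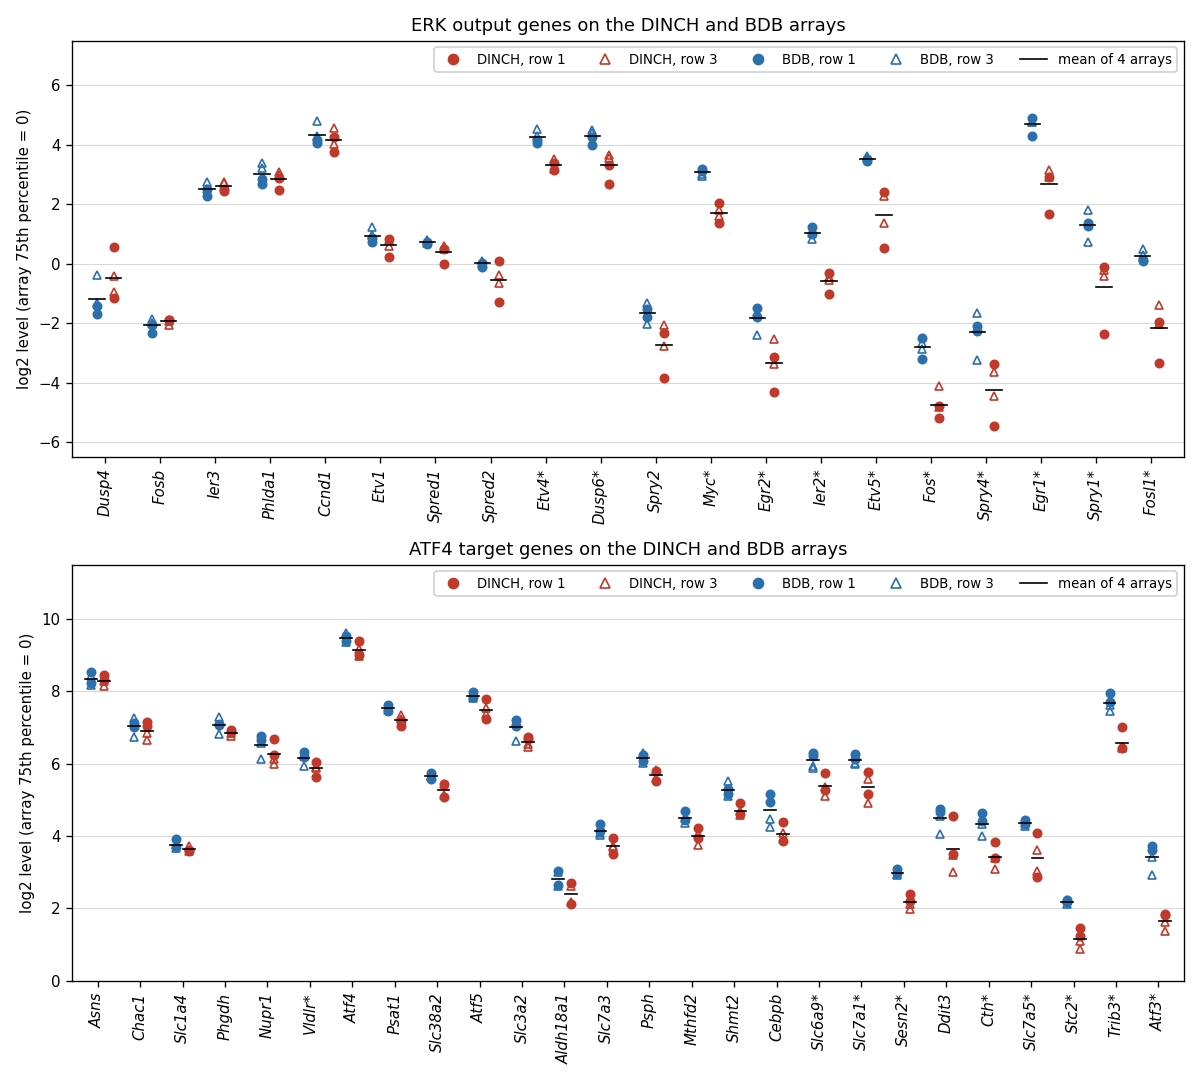
Log2 level relative to the array's 75th percentile (vertical axis) of 20 ERK output genes (upper panel) and 26 ATF4 target genes (lower panel) (horizontal axis, called genes starred), with 1 point per array, DINCH in red and BDB in blue, filled circles for slide row 1, open triangles for row 3 and black bars for the means of 4 arrays. Every DINCH array lies below every BDB array for Egr1, Fosl1, Spry1 and Atf3, while the groups overlap for Ccnd1 and Asns.

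ATF4 target genes were also lower in DINCH. Of 27 listed genes 26 were tested, 9 were called lower and none higher, and all 26 lay below 0, with a median of −0.45. Over all tested genes 4.48% were called lower and the median was 0.03. Atf3, a stress-induced transcription factor whose promoter is shown above, was at 1.82, 1.38, 1.85 and 1.62 in DINCH and at 3.42, 3.73, 2.93 and 3.61 in BDB. These groups did not overlap and differed by −1.76 ± 0.18, or 3.38-fold (limma, adjusted p = 0.00117). The DMSO mean of Atf3 was 2.39 ± 0.49 (SD, n = 4), nearer its DINCH mean of 1.67 than its BDB mean of 3.42. Of the 8 ATF4 target genes called on their brightest probe, the DMSO mean was nearer BDB in 7. Trib3, a pseudokinase induced under stress, was at 6.43, 6.46, 7.0 and 6.43 in DINCH and at 7.61, 7.71, 7.46 and 7.95 in BDB, a difference of −1.11 ± 0.16 (adjusted p = 0.00321). Stc2, a secreted stanniocalcin, differed by −1.03 ± 0.13. The count of 9 fell to 6 when a probe needed 1 array above background and to 4 with no filter on dim probes.

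Of the ATF4 list, 3 of 7 transporters and 1 of 8 amino acid synthesis enzymes were called, with medians of −0.43 and −0.44. Slc7a5, a carrier of large neutral amino acids, was at −0.95 ± 0.23 (limma, adjusted p = 0.0255), and its adjusted p was 0.0531 without DINCH 1, 0.0616 without DINCH 4, and 0.055, 0.0744, 0.0544 and 0.0647 without BDB 1, BDB 2, BDB 3 and BDB 4. Slc7a1, Slc6a9, Cth and Sesn2 were called at −0.74, −0.71, −0.91 and −0.80, and Vldlr through another of its probes, all 5 named after their values were seen. The enzymes Phgdh (−0.20), Psat1 (−0.33), Psph (−0.47) and Asns (−0.04, 95% interval −0.30 to 0.21) were not called, nor was Chac1 (−0.12, 95% interval −0.44 to 0.20). Atf4 mRNA itself was at −0.33 (adjusted p = 0.085). Slc7a11, the cystine carrier counted here with the NRF2 targets, was at −2.81, −1.48, −1.32 and −1.94 in DINCH and at −0.44, −0.05, −0.58 and −0.16 in BDB, a difference of −1.58 ± 0.29 (adjusted p = 0.00829). The target Nqo1 (0.66 ± 0.16) and Bach1 (0.64 ± 0.10), a repressor listed with the regulators, were higher, and the list had 3 of 28 called, or 5 without BDB 1. The 3 were 10.7% of the NRF2 list, near the 9.89% of all tested genes. The call of Nqo1, a quinone reductase, was lost without DINCH 1, DINCH 4, BDB 2, BDB 3 or BDB 4, with adjusted p-values of 0.0624, 0.0628, 0.0799, 0.0703 and 0.0663. Of 17 tested chaperones of the endoplasmic reticulum 15 lay above 0, with a median of 0.34. In 6 of the 17 every DINCH array was above every BDB array, against 1900 of all 11902 tested genes. Pdia6, a disulfide isomerase, was at 0.49 (adjusted p = 0.0152), under the 1.5-fold limit. Herpud1 was the 1 member called, at −0.88 ± 0.19 (adjusted p = 0.0181), on 3 BDB arrays since its spot on BDB 1 was marked as an outlier, and it was not called without BDB 2 or BDB 4 (0.0692 and 0.0599). Without DINCH 2 or DINCH 3, 2 members of this list were called higher.

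Cholesterol synthesis enzymes were higher in DINCH. All 22 were tested, 6 were called higher and none lower, and all 22 lay above 0, with a median of 0.40. Over all tested genes 5.41% were called higher and 54.5% lay above 0. Mvd, which makes isopentenyl diphosphate, was at 4.36, 4.03, 3.85 and 4.16 in DINCH and at 3.56, 2.58, 3.10 and 2.88 in BDB. The groups did not overlap and differed by 1.07 ± 0.20, or 2.10-fold (limma, adjusted p = 0.00858). Hmgcs1, which makes the precursor of mevalonate, was at 6.06, 5.77, 5.38 and 5.94 in DINCH and at 5.25, 4.38, 4.99 and 4.50 in BDB, a difference of 1.01 ± 0.21 (adjusted p = 0.0148). The lowest DINCH array was only slightly above the highest BDB array for Hmgcs1.

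Further along the cholesterol pathway, Pmvk, the enzyme before Mvd, was at 6.35, 5.86, 5.66 and 5.96 in DINCH and at 5.55, 5.13, 4.99 and 5.13 in BDB. Its difference of 0.76 ± 0.17 had an adjusted p of 0.0171 (limma), which was 0.0555 without BDB 2 and 0.0535 without BDB 4. Idi1 and Fdft1, named after their values were seen, were called at 0.59 and 0.64. Fdps, the farnesyl diphosphate synthase, was at 0.40 (adjusted p = 0.0269), under the 1.5-fold limit. Dhcr7, the last reductase of the pathway, was at 0.66 ± 0.18 (adjusted p = 0.0407) and was not called without any 1 of DINCH 1, DINCH 2, DINCH 3, DINCH 4, BDB 2, BDB 3 and BDB 4, with adjusted p-values of 0.0572, 0.0556, 0.072, 0.092, 0.0941, 0.0505 and 0.107. The late enzymes Cyp51 (0.13), Lss (0.19) and Lbr (0.02) were not called. The count of 6 enzymes fell to 3 without DINCH 1 or DINCH 4 and to 2 without BDB 2 or BDB 4, so it rests on a few arrays.

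The regulators of sterol level were partly called. Of 11 tested genes of sterol sensing, uptake and efflux 3 were higher in DINCH. Insig1, which retains SREBP in the endoplasmic reticulum and is itself induced by it, was at 0.53, 0.33, 0.04 and 0.31 in DINCH and at −0.19, −0.97, −0.44 and −0.87 in BDB, a difference of 0.92 ± 0.18 (limma, adjusted p = 0.0112). Npc1, the lysosomal cholesterol exporter, was at 0.64 ± 0.16, with adjusted p-values of 0.0631, 0.0607, 0.0604, 0.0757 and 0.0657 without DINCH 1, DINCH 4, BDB 1, BDB 2 and BDB 4. Without DINCH 4 or BDB 4, 1 member was called. Srebf1 and Srebf2 were both at 0.01 (95% intervals −0.48 to 0.49 and −0.35 to 0.36). The MEHP mean was nearer DINCH than BDB for all 6 called cholesterol enzymes, and Mvd was at 4.33 ± 0.21 (SD, n = 4) in MEHP and 3.06 ± 0.1 in DMSO. Of 15 tested genes of fatty acid synthesis 1, the malic enzyme Me1, was called, through another probe than its brightest, and none was without DINCH 1, DINCH 4, BDB 2 or BDB 4. Acss2, which activates acetate, was at 0.58 ± 0.11 and Acaca, the acetyl-CoA carboxylase, at −0.40 ± 0.12.

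Glutathione transferases were higher in DINCH in 6 of 16 tested members and lower in none, with 15 of 16 above 0 and a median of 0.40. Over all tested genes 5.41% were called higher and 54.5% lay above 0. With no filter on dim probes, 1 glutathione transferase was called. Gstt1 was at 1.77, 1.84, 1.98 and 2.22 in DINCH and at 0.80, 1.14, 0.94 and 1.36 in BDB, a difference of 0.89 ± 0.15 (limma, adjusted p = 0.00562). Gsta4, which detoxifies the lipid peroxidation product hydroxynonenal, was at −1.34, −1.10, −1.12 and −0.73 in DINCH and at −2.27, −1.93, −1.80 and −1.71 in BDB, a difference of 0.85 ± 0.16 (adjusted p = 0.00865). Neither gene had overlapping groups, although Gsta4 lost its call with the normexp background correction. Gstm1 was at 0.81 ± 0.13 and Gsto2 at 0.77 ± 0.13, and Gstz1 (0.65) and Gstt3 (0.62) were called too, named after their values were seen. Members of this family have near-identical copies, and a probe may read more than 1 of them. Gstp1 was at 0.01 with a 95% interval from −0.18 to 0.20.

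**Figure D4:**
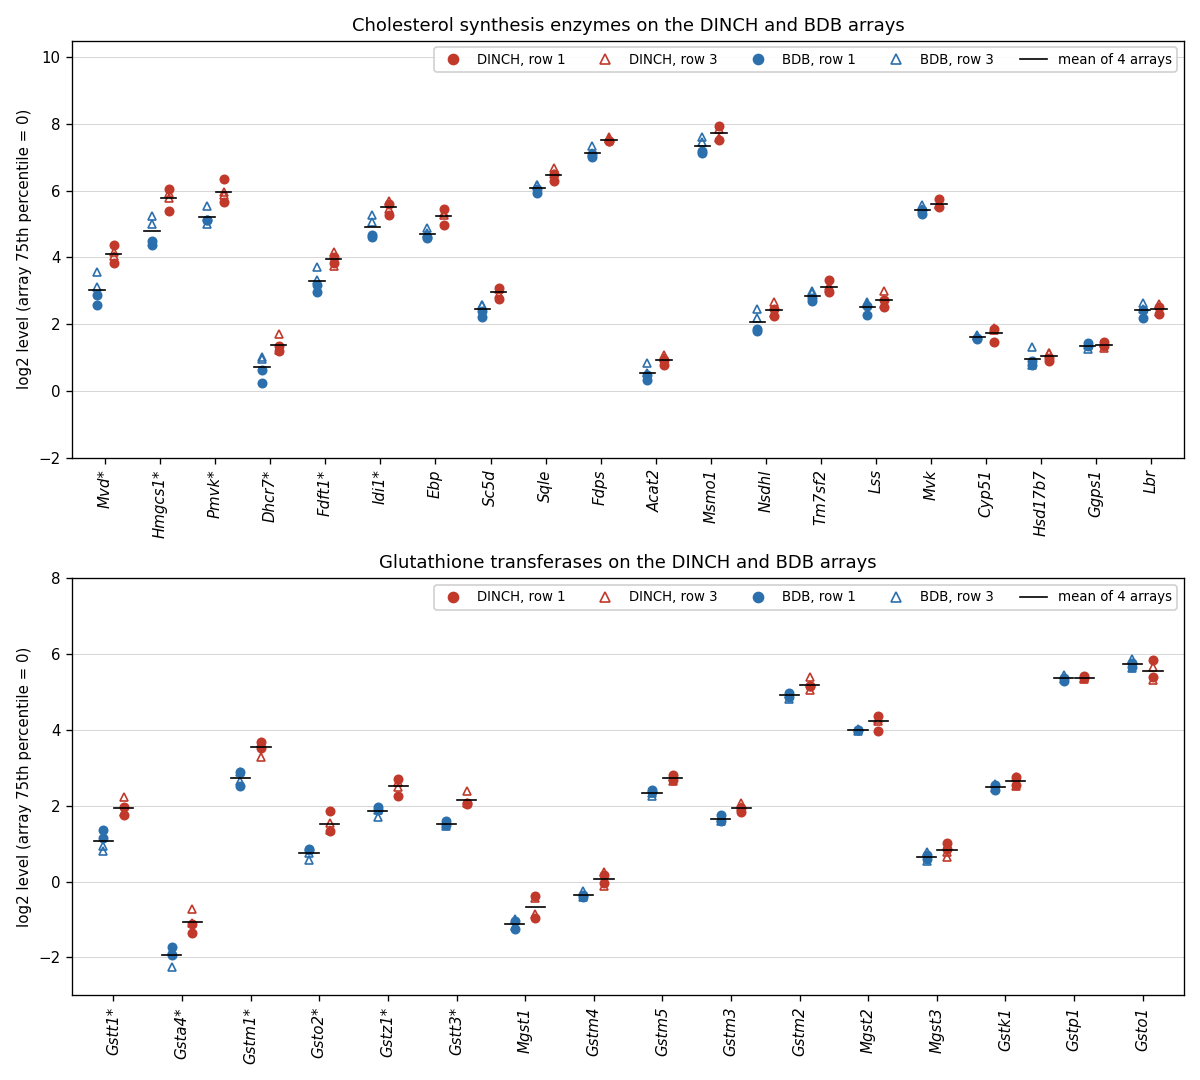
Log2 level relative to the array's 75th percentile (vertical axis) of 20 of the 22 tested cholesterol synthesis enzymes (upper panel) and 16 glutathione transferases (lower panel) (horizontal axis, called genes starred), with 1 point per array, DINCH in red and BDB in blue, filled circles for slide row 1, open triangles for row 3 and black bars for the means of 4 arrays. Every DINCH array of Mvd, Pmvk, Gstt1 and Gsta4 lies above every BDB array, and the groups overlap for Lbr and Gsto1.

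Genes under the lipid-sensing PPAR receptors showed both directions. Of 22 tested PPAR target genes 2 were higher in DINCH and 2 lower, with a median of 0.13, and without BDB 2 the counts were 1 and 1. With all arrays 18.2% were called, against 9.89% of all tested genes. Pdk4, a kinase that turns off pyruvate oxidation, was at 0.34, −0.62, −0.71 and 0.02 in DINCH and at −1.51, −1.82, −1.82 and −1.59 in BDB, a difference of 1.44 ± 0.22 (limma, adjusted p = 0.0042). Angptl4, a secreted inhibitor of lipoprotein lipase, was at 0.00, 1.70, 1.85 and 1.03 in DINCH and at 3.01, 4.30, 4.22 and 3.94 in BDB. Thus Angptl4 was lower on every DINCH array than on every BDB array, by −2.72 ± 0.41, or 6.59-fold (adjusted p = 0.00389), while Pdk4 was higher. In MEHP both were higher than in either group, Pdk4 at 2.17 ± 0.04 (SD, n = 4) and Angptl4 at 7.14 ± 0.17. In DMSO Pdk4 was at −1.44 ± 0.10 and Angptl4 at 3.87 ± 0.51, both near their BDB levels.

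Among the PPAR targets of fatty acid oxidation, Acot2, a mitochondrial thioesterase, was called lower, at −0.73 ± 0.16, with adjusted p-values of 0.053 and 0.0503 without BDB 2 and BDB 4. Cpt1a (0.19), Acadm (0.16), Hadha (0.09) and Plin2 (0.24) were not called. The receptors Ppara, Ppard and Pparg were at −0.08 (95% interval −0.27 to 0.11), 0.16 (−0.05 to 0.36) and 0.02 (−0.23 to 0.28), and of the 13 tested receptors and partners only Rxra, a common partner receptor, was called, at 0.81 ± 0.13 on its brightest probe (limma, adjusted p = 0.00562). A second probe of Rxra was at −0.11 (adjusted p = 0.737). The call was lost with the normexp background correction. Hprt, a housekeeping gene of purine salvage, was at −0.13 with a 95% interval from −0.36 to 0.11 (adjusted p = 0.474).

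Of the 3 tested metallothioneins, small proteins that bind zinc and copper, Mt1 and Mt2 were higher in DINCH. Mt1 was at 8.93, 7.77, 7.30 and 8.41 in DINCH and at 6.31, 6.53, 6.03 and 6.56 in BDB, a difference of 1.75 ± 0.31 (limma, adjusted p = 0.00689). Mt2 was at 6.60, 4.63, 3.76 and 5.37 in DINCH and at 3.11, 3.54, 3.06 and 3.38 in BDB. The DINCH arrays of Mt2 spanned nearly 3 log2 units, with DINCH 1 highest, while the BDB arrays spanned less than 1. The difference of Mt2 was 1.82 ± 0.48 (adjusted p = 0.035), and the adjusted p was 0.0776 without DINCH 4 and 0.0757, 0.0744, 0.0847 and 0.0778 without BDB 1, BDB 2, BDB 3 and BDB 4. Mt3 was at −0.12 (95% interval −0.38 to 0.14). Of 17 tested metallothioneins and zinc genes 3 were called, the third being the zinc importer Slc39a8 at 1.04 ± 0.21, well above background on 1 of 4 BDB arrays and not called with the normexp background correction. Slc39a8 passed the filter only through the DINCH arrays, where it was brighter, so the filter was not independent of its difference. Mtf1, the factor that senses zinc, was at 0.00 with a 95% interval from −0.24 to 0.24.

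Circadian clock genes were separated in both directions, with 4 higher in DINCH and 3 lower of 14 tested. That was 50% called, against 9.89% of all tested genes. Dbp, an output factor of the clock, was at 3.78, 3.40, 3.36 and 3.96 in DINCH and at 2.17, 1.32, 1.77 and 2.05 in BDB, a difference of 1.80 ± 0.20 (limma, adjusted p = 0.00169). Nfil3, a repressor that competes with DBP for the same sites, was at 3.15, 2.98, 3.14 and 3.28 in DINCH and at 4.37, 4.69, 4.31 and 4.73 in BDB. Nfil3 thus differed in the opposite direction to Dbp, with no overlap between groups, by −1.39 ± 0.13 (limma, adjusted p = 0.000818). In DMSO Nfil3 was at 3.47 ± 0.33 (SD, n = 4), nearer its DINCH mean of 3.14 than its BDB mean of 4.52. For 6 of the 7 clock genes called on their brightest probe the DMSO mean was nearer BDB. Per1, a repressor of the core loop, was higher by 1.06 ± 0.14, and Ciart was lower, at −1.37 ± 0.23. Named after their values were seen, Bhlhe41 (1.05) and Per3 (1.01, well above background on 1 of 4 BDB arrays) were higher and Arntl (−0.72), the activator of the loop, was lower. Per3 and Cry1 passed the filter only through the DINCH arrays, and Cry1 was at 0.42 and not called. For both genes the filter was not independent of the difference. Without BDB 2 the counts were 2 higher and 2 lower. The time of day at harvest is not given in the labels.

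Growth factor and adhesion genes had calls in both directions. Of 23 tested TGF-beta, activin and inhibin genes, Tgfb2 was higher at 0.74 ± 0.13, and Grem1, Smad7 (−1.08 ± 0.20), an inhibitory SMAD, and Id1 (−0.96 ± 0.11), a target of bone morphogenetic proteins, were lower. Of 15 ephrins and Eph receptors Efna1 was higher at 0.73 ± 0.10 and Efnb2 lower at −1.24 ± 0.18. The shares called were 17.4% of the TGF-beta list and 13.3% of the ephrin list, against 9.89% of all tested genes. Of regulators of the cytoskeleton, Ngef, a guanine nucleotide exchange factor, was higher at 1.11 ± 0.16, Rhpn2 was higher at 0.75 ± 0.14 and Rnd1 was lower at −0.86 ± 0.20. Rnd1 was not called without BDB 1, BDB 2 or BDB 4 (limma, adjusted p of 0.0515, 0.0667 and 0.0657). Its DMSO mean was 3.71, nearer its DINCH mean of 3.92 than its BDB mean of 4.78. Of 12 tested contractile genes 3 were higher and 1 lower, with Myom2 highest and Myl4 (−1.1 ± 0.19) lowest, and of 7 YAP output genes 1 was lower. Without DINCH 3 or BDB 4, 3 of these 19 genes were called. Ahr, the receptor for dioxins, was higher at 0.68 ± 0.14, 1 of 5 tested genes of its list to be so, and Aldh3a1 was called lower through another probe than its brightest, which was at 0.20. That call was lost without any 1 of 6 arrays.

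Few proliferation genes were called. None of 21 tested mitotic genes was called, and the 2 with the smallest p-values were Aurka at −0.35 (95% interval −0.60 to −0.10) and Ccnb2 at 0.28 (0.01 to 0.55). Of 38 tested DNA replication genes 2 were lower, Mcm10 at −0.77 ± 0.09 and Orc2 at −0.65 ± 0.13, with a median of −0.19, and Orc2 fell under the 1.5-fold limit without DINCH 3, at −0.55. Their share of 5.26% was near the 4.48% of all tested genes called lower. Among 20 p53 targets and CDK inhibitors 3 were higher and 2 lower, and 3 in all without DINCH 1, DINCH 4 or any 1 of the BDB arrays. On the full set of arrays 25% were called, against 9.89% of all tested genes. Sesn1 (0.71 ± 0.11) and Trp53inp1 (0.65 ± 0.17) were higher and Btg2 (−1.16 ± 0.33) and Gdf15 (−0.85 ± 0.17) lower. Btg2 and Trp53inp1 were each not called without any 1 of 6 arrays, with adjusted p-values up to 0.107 for Btg2, without BDB 3, and 0.0788 for Trp53inp1, without BDB 3. Of 29 glycolysis and hypoxia genes 4 were lower, including Hk2 (−0.95 ± 0.20), Vegfa (−0.84 ± 0.17), Ankrd37 (−0.74 ± 0.19) and Ddit4 (−0.59 ± 0.14). Hk2 was at an adjusted p of 0.0505 without BDB 2, Ddit4 was at −0.48 without DINCH 1, and Ankrd37 kept its call only when the array left out was DINCH 2 or DINCH 3, with an adjusted p of up to 0.0757 otherwise. The count of 4 fell to 2 without DINCH 1, DINCH 4, BDB 1 or BDB 2. The small heat shock genes Hspb2 (0.91 ± 0.17) and Cryab (0.86 ± 0.23) were higher, with 3 of 15 cytosolic heat shock genes called, and Cryab had adjusted p-values of 0.0734, 0.099, 0.0938 and 0.091 without DINCH 4, BDB 2, BDB 3 and BDB 4. Without any 1 of these 4 arrays, 1 of the 15 was called. The 3 called with all arrays were 20% of the list, against 9.89% of all tested genes.

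Of the genes that mark Sertoli cells, 12 of 22 were tested. Dhh, a hedgehog ligand that Sertoli cells send to neighbouring cells, was at 2.56, 1.94, 2.12 and 2.17 in DINCH and at 1.32, 1.19, 1.34 and 1.27 in BDB, a difference of 0.92 (limma, adjusted p = 0.00328). Ptgds, a prostaglandin synthase, was higher by 1.18 and was well above background on 2 of 4 BDB arrays. It passed the filter only through the DINCH arrays, so the filter was not independent of its difference. Sox9 (−0.06), Gata4 (−0.42), Nr5a1 (−0.06) and Dmrt1 (−0.04) were tested and not called, and Sox9 passed the filter only through the BDB arrays. Inhbb, an inhibin and activin subunit, was at 2.57, 3.24, 3.70 and 3.41 in DINCH and at 3.33, 4.39, 4.70 and 4.55 in BDB, groups that overlapped, with a difference of −1.01 (adjusted p = 0.0607). The defining Sertoli genes were partly absent, as Wt1, Fshr and Aard were not well above background on any of the 8 arrays and Amh was so on 1 DINCH array. Of the genes listed for Sertoli cell function, Cldn11, Krt18 and Trf were not well above background on any of them. Of 8 tested junction genes only Cxadr was called, at −1.0 ± 0.22, with adjusted p-values of 0.0579 and 0.0566 without BDB 2 and BDB 4, and F11r was at 0.45 (95% interval 0.15 to 0.75). Of markers of other testis cells, 1 of 7 for Leydig cells, 1 of 6 for germ cells, 2 of 5 for endothelial cells, 3 of 5 for peritubular cells and 2 of 6 for macrophages were tested, and none was called. The Leydig enzyme Cyp17a1 was detected on all 8 arrays, at means of 4.01 in DINCH and 3.87 in BDB, whereas Cyp11a1 and Lhcgr were not well above background on any.

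The study named 55 genes as members of selected pathways for DINCH, a part of its DINCH genes. All 55 were tested, and 33 were higher and 4 lower here, with a median of 0.65. The study chose these genes on the same DINCH arrays against DMSO, so it is not independent evidence of direction. The DMSO mean was nearer BDB for all 35 members called on their brightest probe, and nearer DINCH for none. Because the genes were chosen as differing between DINCH and these DMSO arrays, that position was largely fixed by the choice. Sema3b (1.40 ± 0.17), a secreted guidance molecule, and Sh2d3c (1.39 ± 0.16), an adaptor protein, were among the largest differences of the list. Sh2d3c passed the filter only through the DINCH arrays and lost its call with the normexp background correction.

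Because the compounds shared their slide rows, the differences could be read within each row. With the row as a block 1145 genes were called, and with the slide as a block 1223. Within row 1 alone, 2 arrays against 2, 92 genes were called, and within row 3 none, where 3104 probes had an unadjusted p below 0.05 and the smallest adjusted p was 0.159. Ifit3 was at 1.86 in row 1 and 1.81 in row 3, and Oasl2 at 1.74 and 2.15. ERK output genes differed more in row 1, with Egr1 at −2.30 and −1.72 and Fosl1 at −2.77 and −2.08, and so did Mgp, at −4.31 and −3.06. Row 1 holds DINCH 1, the array that was lowest for these 3 genes, and these gaps between rows were not tested. Mvd was at 1.38 in row 1 and 0.76 in row 3, while Gstt1 was at 0.62 and 1.16.

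**Figure D5:**
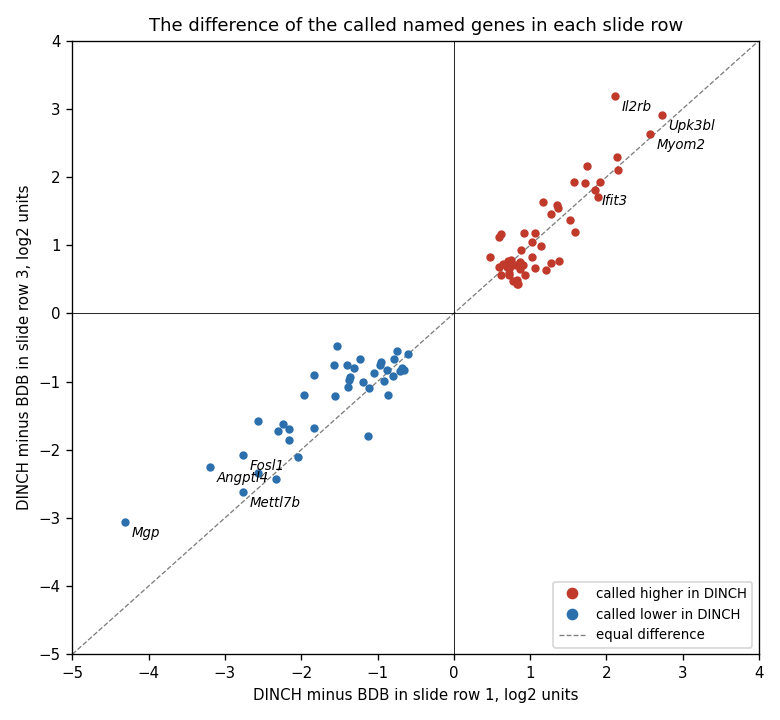
Difference between DINCH and BDB (log2, DINCH minus BDB) of the 89 called named genes within slide row 1 (horizontal axis) and within row 3 (vertical axis), 1 point per gene, with the line of equal difference. The genes were called on these same 8 arrays, and Mgp lies lowest, at −4.31 in row 1 and −3.06 in row 3.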

How the data were processed

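The authors made labelled cRNA from RNA of TM4 cells, hybridized it to Agilent 1-colour mouse arrays and extracted spot intensities with Agilent's Feature Extraction software, which subtracted background and marked outlier spots. The deposited intensities are linear and unscaled. A second deposited file holds the authors' log2 values, scaled to the 75th percentile and centred per probe. Each of its columns correlated at 0.9996 or more with its own array and at up to 0.407 with another. Here the log2 of the processed signal (values under 1 raised to 1) minus the 75th percentile of the array's non-control probes was used. Outlier spots, 119 to 171 per array, were dropped and repeated spots averaged. RefSeq accessions gave 26582 of 55681 probes a symbol, 20145 symbols in all, and 8419 tested probes had none. Testing required that a probe be well above background and not under its array's 20th percentile, on all DINCH arrays or all BDB arrays.

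Tests were two-sided and ran in R 4.3.3 (limma 3.58.1), with p-values adjusted by Benjamini-Hochberg. Figures were drawn with matplotlib 3.10.9 and pandas 2.3.3 under Python 3.11.15. Genes are described by their brightest tested probe. On simulated data of 23894 probes, 73% of 200 changes of 1 log2 unit and 99% of 200 changes of 2 log2 units were recovered, with 5 and 10 false calls. The simulated noise was independent between probes and arrays, unlike the shared deviations described next. In the data 1760 probes were called, with a median of 1.72-fold, below the smallest change simulated. The recovery of such smaller changes was not tested. The main test did not pair the samples. Same-numbered DINCH and BDB arrays deviated together from their group means (correlations of 0.371, 0.368, 0.148 and 0.261). Pairs 1, 2 and 4 shared a slide. DINCH 2 and BDB 3, which shared a slide but not a number, were at 0.258, and DINCH 3 and BDB 4, likewise, at 0.096. Replicate number and slide therefore cannot be fully told apart. The genes named were the 10 called genes highest and the 10 lowest in DINCH with no overlap of the groups, those the study measured by qPCR with Hprt and the PPAR receptors, and up to 4 called members of each list with the largest differences, or the 2 with the smallest p where fewer than 2 were called. Other genes are marked as such or given only as members of their list. Some genes that meet the rule or belong to a list are not reported here. The arrays, lists and rules were chosen with earlier results of these data known. Alternatives were another normalization, background correction, probe filter or choice of probe, blocks for slide, row and replicate number, each row alone, a fit with MEHP, a variance trend, outlier spots kept, the authors' table, and each array left out in turn. The number of arrays limits the precision.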

Additional observations from a re-analysis of the deposited data

Results flagged for a closer look

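Of 208 groups of 4 arrays, 1 for each named gene and compound, 14 had an array whose gap to its neighbour exceeded Dixon's 95% critical value, and chance at 1 in 20 gives 10.4. DINCH 1 was that array for 5 genes: Btg2 at −2.01 (others −0.48 to −0.39), Egr1 at 1.68 (2.92 to 3.14), Irf7 at −1.40 (−1.98 to −1.89), Smad7 at −0.78 (−0.04 to 0.10) and Spry1 at −2.38 (−0.41 to −0.13). DINCH 3 stood apart for Plekhs1 at −2.19 (−1.43 to −1.36) and Trib3 at 7.0 (6.43 to 6.46), and DINCH 4 for Ciart at −1.18 (−2.0 to −1.91) and Tnc at −5.12 (−3.30 to −2.98). Among the BDB arrays, BDB 1 stood apart for Fbn1 at 0.12 (1.24 to 1.44), BDB 2 for Mcm10 at 2.58 (2.71 to 2.72) and Ppara at 0.15 (0.23 to 0.25), and BDB 3 for Mras at 1.51 (1.82 to 1.88) and Rnd1 at 4.31 (4.90 to 4.97).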

How the results depend on the processing

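The 1177 genes called, 644 higher and 533 lower in DINCH, became 675, 320 and 355 with the normexp background correction, 356, 184 and 172 with no filter on dim probes (55681 probes tested), 92, 38 and 54 within row 1 and 0, 0 and 0 within row 3, where fewer arrays were compared. In row 3, limma gave 3104 probes at an unadjusted p under 0.05. Leaving out 1 array gave 835 to 1313 genes, 461 to 775 higher and 374 to 590 lower. All 3 counts were smallest without BDB 2. The total and the higher genes were most without DINCH 2, and the lower genes without BDB 1. With the pairing by replicate number as a block, 1287 genes were called, 683 higher and 604 lower, of which 1158 were shared, and the block changed no call of a named gene. The slide block ended the calls of 8 named genes, including Dhcr7, Trp53inp1, Npc1, Vcl, Rras, Ankrd37 and Tnc, the row block those of Cryab, Vcl and Fbn1, quantile normalization those of 2, including Vcl, normexp those of 16 named genes, the filter that asks for 1 array above background those of 23 and no filter those of 53. Those lost with normexp included Ahr, Tgfb2, Nqo1, Npc1 and Rxra. The other alternatives gave 897 to 1240 genes. Quantile normalization gave 588 higher and 568 lower. Of 1958 values of the 89 called named genes over 22 alternatives, 1581 kept the call, 377 lost it with the same direction and 0 reversed, and each of the 89 lost its call within row 3. Pparg, at 0.02 and not called, changed sign to −0.14 within row 3 and ranged from −0.026 to 0.116 with 1 array left out, below 0 without DINCH 2, DINCH 3 or BDB 4. The causes of the calls lost with normexp and with the slide and row blocks were not tested. Signal over background limited Upk3bl and Il2rb, whose BDB levels are only bounded.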
